A study of Rattus norvegicus with 2 samples.

Results

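Toll-like receptors are membrane proteins that recognize conserved microbial molecules and some molecules released by injured cells. Receptors on the cell surface respond mainly to components of microbial walls and flagella, and receptors of the endosome respond to nucleic acids. All of them except Tlr3 signal through the adaptor Myd88, which recruits kinases of the Irak family and leads to NF-kB and interferon regulatory factors. In lymph nodes they are known from macrophages, dendritic cells, and B cells.

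The genes described here are 9 receptors (Tlr1, Tlr2, Tlr3, Tlr4, Tlr5, Tlr6, Tlr7, Tlr9, and Tlr10) and Myd88. They were chosen by name, as every probe other than a control whose gene name in the array files is 1 of these 10. This gave 14 probes among 45598, and 10 genes among 36174 gene names. Of the genes, 7 had 1 probe, 2 had 2 probes (Tlr3 and Tlr7), and 1 had 3 probes (Tlr6). Each member probe was printed in 1 spot per array. Where a gene has several probes, the brightest over both arrays stands for it below. All probes are given for the members, and for other genes the further probes of those past 2-fold.

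RNA came from cervical lymph nodes of male Sprague-Dawley rats aged 10 to 12 weeks. The C array holds RNA of unstressed controls, and the RS array holds RNA of rats held in restraint, for which the labels state no duration. The study reports its array results for the shortest of its restraint times. The study tied rats on their backs to a board, and rats of both groups were anesthetized with halothane and killed with pentobarbital. The labels do not say how many rats an array stands for. With 1 array per group, none of the differences below could be checked in a replicate, and no test was made.

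The arrays carry 60-base probes read in 1 color, and spot brightness, in arbitrary units, rises with the labeled RNA that binds. Each array was scaled by its 75th percentile (189 for C, 176 for RS), and differences are between the scaled log2 signals. The spot error given with a difference joins the errors reported by the scanner software for both arrays. It covers the spot measurement only, not differences between rats. Of 308 negative control spots, 2 on the C array and 3 on the RS array were marked as well above background. Markers of lymphocytes were in place on both arrays, with 8 of 8 B cell genes and 9 of 9 T cell genes on the arrays well above background. All 6 erythrocyte genes and 6 of 9 fat cell genes above background were 2-fold or more higher on the RS array, with median log2 differences of 2.58 and 1.63, and no macrophage gene differed by 2-fold.

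Of the 10 member genes, 1 differed by 2-fold or more between the arrays. This was Tlr5, the receptor for bacterial flagellin, which was lower on the RS array. Over all 21096 genes well above background on at least 1 array, 7.74% differed by 2-fold or more (3.46% of all these genes were higher and 4.28% were lower), so that the share among the members is close to that of all genes. The other members lay between log2 differences of -0.57 for Tlr3 and 0.54 for Tlr1. The median over the members was 0.07, compared with 0.02 over all genes, with 5 members above 0 and 5 below. All members passed the filter on background, 9 on both arrays and Tlr9 on the RS array only. By probe, 13 of 14 were well above background on both arrays. The differences of 5 of 14 exceeded the 95% range of their spot error. Of these, 2 were higher (Tlr1 and Myd88) and 3 were lower (Tlr5 and both probes of Tlr3). The share of all probes beyond that range was not computed, so this count does not set the members apart from other genes.

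**Figure D1:**
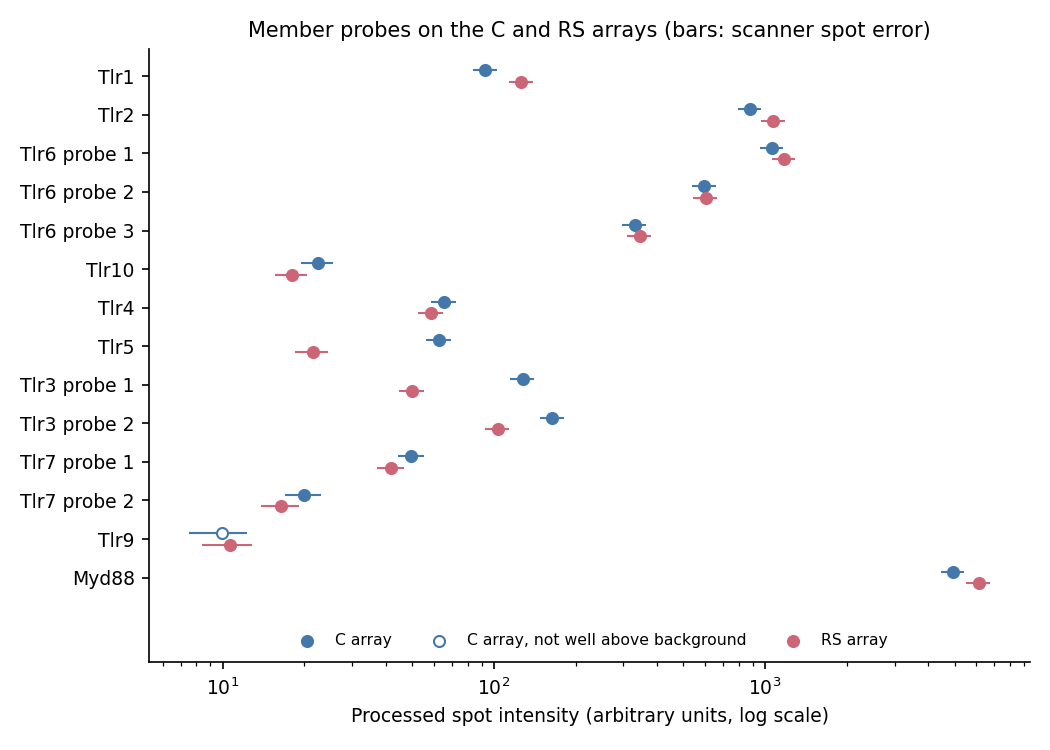
Processed spot intensity (log axis, arbitrary units) of each member probe on the C array (blue) and the RS array (red), with the scanner's spot error as bars. The intensities of Tlr5 and of both Tlr3 probes are visibly lower on the RS array, and the open symbol is Tlr9 on the C array, at 9.92, not well above background there. Heights of different probes are not comparable.

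Tlr2 recognizes bacterial lipoproteins as a pair with Tlr1 or Tlr6, and Tlr10 is a close relative of these. Tlr6, Tlr1, and Tlr10 are neighbors on chromosome 14, where their 5 probes span 41.3 kb from 46100547 to 46141837 (all positions are on rn4, the build named in the file headers). The probe sequences of Tlr1, Tlr2, and Tlr6 are shown because these receptors are similar in sequence and a probe could bind the RNA of a relative. Capitals mark the run of bases shared by the Tlr1 and Tlr2 probes, and in the Tlr6 probe the start of that run.
Tlr1 (chr14:46124542-46124601, forward strand): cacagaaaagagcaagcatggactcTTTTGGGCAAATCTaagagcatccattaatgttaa
Tlr2 (chr2:175608160-175608217, reverse strand): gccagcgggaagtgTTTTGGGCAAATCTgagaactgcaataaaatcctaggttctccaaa
Tlr6, probe 1 (chr14:46100547-46100606, forward strand): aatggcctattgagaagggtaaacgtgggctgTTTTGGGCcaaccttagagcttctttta
The run of 14 bases shared by Tlr1 and Tlr2 was the longest among the 86 pairs of member probes for different genes, and the next longest, between Tlr2 and probe 1 of Tlr6, was 10 bases. Shared binding was not tested beyond this count of letters.

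Tlr1 went in intensity from 93.0 (C) to 126 (RS). The log2 difference was 0.54 (spot error 0.21), or 1.45-fold, the largest increase among the members and under 2-fold. Tlr2 went from 881 to 1073, a log2 difference of 0.38 (spot error 0.20). The value of Tlr2 lay within the 95% range of its error. The 3 probes of Tlr6 went from 1062 to 1175, from 597 to 604, and from 330 to 344. Their log2 differences were 0.24, 0.12, and 0.16 (spot error 0.20 each), so that the 3 probes gave the same small difference within the error of a spot. Tlr10 was dim, at 22.4 and 18.03, and its log2 difference of -0.22 was smaller than its spot error of 0.28. Thus Tlr2 and both of its partners had a higher signal on the RS array, and of the 3 only Tlr1 lay beyond the 95% range of its spot error.

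Tlr4 is the receptor for lipopolysaccharide and acts with the proteins encoded by Ly96 and Cd14. Its probe (chr5:83577410-83577469, forward strand) went from 65.5 (C) to 58.5 (RS). The log2 difference, -0.06, was well within the spot error of 0.22. Ly96, which encodes the part of the complex that binds lipopolysaccharide, went from 159 to 169, a log2 difference of 0.19 (spot error 0.21.) Cd14, which hands lipopolysaccharide to the complex, went from 312 to 927. This was 3.18-fold higher on the RS array, a log2 difference of 1.67 (spot error 0.20.) Of these 3 genes, Cd14 was the 1 past 2-fold, and its log2 difference lay between 1.46 and 1.70 under all alternatives tried.

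The signal of Tlr5 was 62.6 (C) and 21.4 (RS), both well above background. This was 2.73-fold lower on the RS array, a log2 difference of -1.45 (spot error 0.25), and it was the largest difference among the members. In whole tissue, fewer cells that carry the receptor and less RNA per cell cannot be told apart. The mean signal of Tlr5, 36.6, lies near the lower end of its quartile of mean signal (31.4 to 148). Among the 5274 genes of that quartile, 8.04% differed by 2-fold or more and 4.25% were lower by that much. In the quartile below (4.06 to 31.4), these shares were 13.8% and 7.64%. The normexp background correction of limma was run here with an offset of 50 added to all signals, a setting that shrinks differences of dim probes. With it, the log2 difference of Tlr5 was -0.49, under 2-fold. The gene rests on 1 probe of 1 spot (chr13:99028987-99029046, forward strand), which opens with an unbroken run of A and G bases. The first bases of this probe are shown because many of the lower probes in these data hold repeats of A and G, and capitals mark the run.
Tlr5, first 27 bases of the probe: AGAGAAAGGAAAGAAGAGAAGcagtcc
The run of 21 bases was the longest among the member probes, of which the next was a run of 17 in probe 2 of Tlr7. Over the 23793 probes well above background on both arrays, 2.85% were lower by 2-fold or more, compared with 31.6% of the 57 probes with a run of 20 or more A or G bases. Among the latter, 33 probes held no strictly alternating stretch of 6 or more A and G bases. The Tlr5 probe is 1 of these, with a longest such stretch of 5. Of the 33, 2 (6.06%) were lower, and the Tlr5 probe is itself 1 of the 2. The probe of Myd88 and probe 2 of Tlr7 each hold a strictly alternating stretch of 6 A and G bases. The part of the probe sequence in the values of Tlr5, Myd88, and Tlr7 was not tested.

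**Figure D2:**
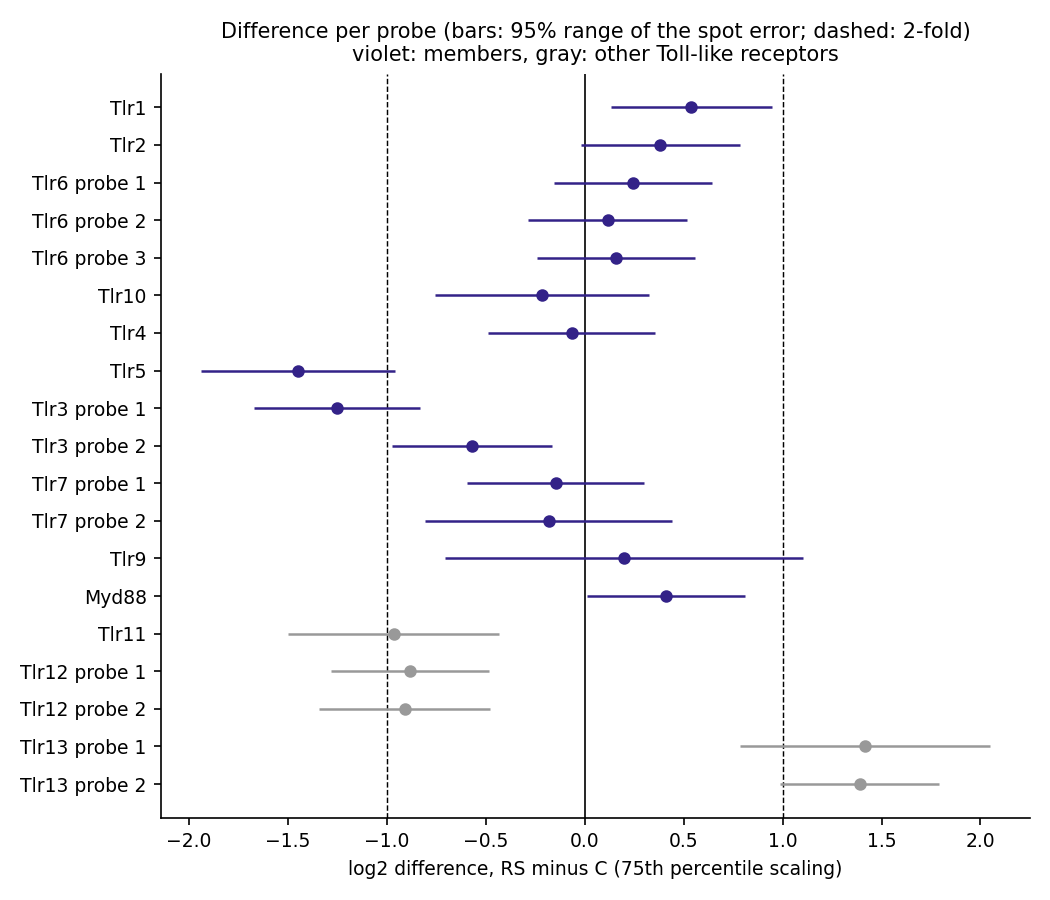
Log2 difference of normalized signal (RS minus C) for each member probe (violet) and for the probes of other Toll-like receptors above background (gray), with bars for the 95% range of the spot error and dashed lines at 2-fold. Tlr5 at -1.45 and probe 1 of Tlr3 at -1.25 are the member probes past 2-fold, and both probes of Tlr13 lie above it.

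Tlr3, the receptor for double-stranded RNA, was lower on the RS array with both of its probes, which lie 734 bases apart on chromosome 16 (from 50126271 and from 50127005, forward strand). Probe 2, the brighter, went from 164 to 103, a log2 difference of -0.57 (spot error 0.21.) Probe 1 went from 127.5 to 49.99, a log2 difference of -1.25 (spot error 0.21), or 2.38-fold lower. The probes thus gave the same direction, and only the dimmer was past 2-fold. They differed from each other by 0.68 on the log2 scale. Over 2883 genes with 2 probes above background on both arrays, the median of this gap was 0.16, and it was at least as large as that of Tlr3 in 7.15% of them. With the mean over its probes the log2 difference of Tlr3 was -0.91, and with normexp that of probe 1 was -0.69.

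Tlr7 responds to single-stranded RNA and Tlr9 to DNA with unmethylated CpG. The brighter probe of Tlr7 (chrX:47356167-47356226, forward strand) went from 49.6 (C) to 41.9 (RS). The other probe (chrX:47357574-47357633, forward strand) went from 19.97 to 16.4. Their log2 differences, -0.15 and -0.18, were both smaller than the spot errors of 0.23 and 0.32. The 1 probe of Tlr9, which the files give as unmapped, was at the edge of detection. It was 9.92 on the C array, not well above background, and 10.6 on the RS array. The ratio of these signals for Tlr9 was 1.15-fold, or 0.20 on the log2 scale, against a spot error of 0.46. No difference beyond the spot error was detected for Tlr7 or Tlr9, and the error of Tlr9 leaves room for one near 2-fold. Unc93b1, which carries the endosomal receptors out of the endoplasmic reticulum, went from 3241 to 2483, a log2 difference of -0.29 (spot error 0.20.)

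Myd88 (chr8:124299763-124299822, reverse strand) was bright on both arrays, at 4930 (C) and 6121 (RS). The log2 difference was 0.41 (spot error 0.20), or 1.33-fold, just beyond the 95% range of the error. The spread between spots was small at such signals. Over 952 probes of the C array with at least 8 spots and an intensity of 512 or more, the median SD of the log2 intensity was 0.052. It was 0.22 over 72 probes between 8 and 32, the range that holds Tlr10 and Tlr9. Tirap, which bridges Myd88 to Tlr2 and Tlr4, went from 60.02 to 79.5, a log2 difference of 0.50 (spot error 0.21.) Ticam1, the adaptor of Tlr3, was dimmer on the RS array, with 43.7 and 35.6, but its log2 difference of -0.19 was within its spot error of 0.23. Ticam2, which joins Ticam1 to Tlr4, had a log2 difference of -0.50 (spot error 0.21.)

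**Figure D3:**
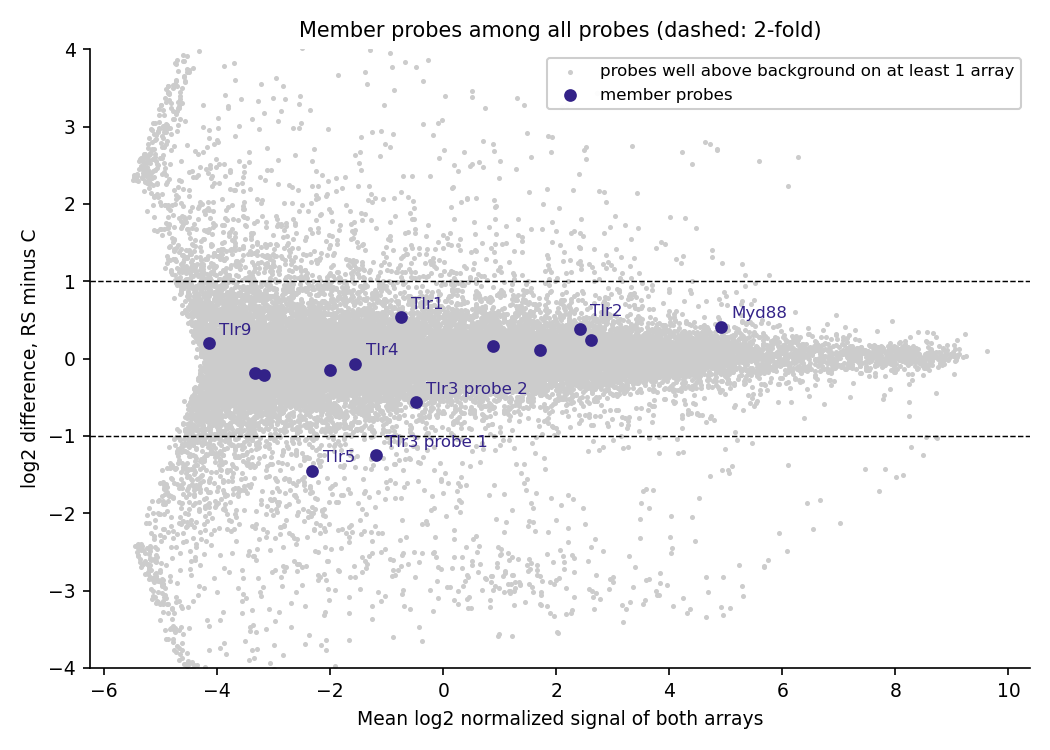
Log2 difference (RS minus C) against mean log2 normalized signal for all probes well above background on at least 1 array (gray) and the 14 member probes (violet), with dashed lines at 2-fold; 118 gray probes beyond 4 log2 units are not drawn. Tlr5 and probe 1 of Tlr3 are the member probes outside the dashed lines, and the spread of all probes widens at low signal.

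The files also name Tlr8, Tlr11, Tlr12, and Tlr13, which were added after their values had been seen. Tlr13, a rodent receptor for bacterial ribosomal RNA, was higher on the RS array with both of its probes. The brighter went from 278 to 680 and the other from 14.5 to 36.2. Their log2 differences were 1.39 and 1.42, with spot errors of 0.20 and 0.32, so that the 2 probes gave nearly the same 2.62- and 2.67-fold increase. Tlr12 was lower with both probes, from 1210 to 612 and from 88.4 to 43.9, or log2 differences of -0.88 and -0.91. Tlr11, which like Tlr12 recognizes profilin of protozoa, went from 33.3 to 15.9, a log2 difference of -0.96 (spot error 0.27.) Neither Tlr11 nor Tlr12 reached 2-fold, and Tlr8 was above background on neither array. With normexp, the log2 differences were 1.22 and 0.44 for the probes of Tlr13, -0.85 and -0.45 for those of Tlr12, and -0.26 for Tlr11.

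The other genes of the pathway were taken from lists ordered by role. These lists were chosen with earlier results of these data known, which partly sets the counts below. Near the receptors, the shares past 2-fold were no higher than the 7.74% of all genes. They were 1 of 16 co-receptors and chaperones (6.25%) and 1 of 25 adaptors and signaling enzymes (4%). Their median log2 differences were 0.10 and 0.02. The 1 co-receptor was Cd14, and the largest decrease in that list was Cd180, a Toll-like receptor relative of B cells, which went from 122 to 62.3, a log2 difference of -0.87. The 1 enzyme was Map3k8, a kinase that links the receptors to the ERK pathway, which went from 897 to 1703, or 2.03-fold (log2 difference 1.02, and 0.92 with normexp, under 2-fold). Tab1, a partner of the kinase encoded by Map3k7, had the largest decrease of its list, with a log2 difference of -0.52. Among the genes that act next to Myd88, the log2 differences of Irak1 (-0.08), Irak4 (0.10), and Traf6 (0.01) were within their spot errors. That of Irak2, a further kinase of the complex, was 0.73 (spot error 0.20), from 589 to 909. Peli2, a ubiquitin ligase that acts on Irak proteins, was dim and went from 14.4 to 26.6, a log2 difference of 0.98 (spot error 0.29).

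Among molecules described as endogenous ligands, 6 of 13 were 2-fold or more higher on the RS array, compared with 3.46% of all genes. The median log2 difference was 0.97, and 0 were lower by 2-fold. S100a8 and S100a9, which form a calcium-binding alarmin recognized by Tlr4, went from 19.3 to 286 and from 36.3 to 464, or 15.9-fold and 13.7-fold. Hspa1a, an inducible heat shock protein, went from 46.1 to 931, or 21.6-fold (log2 difference 4.43), with its brighter probe. Its other probe went from 7.26, not well above background, to 32.6, a log2 ratio of 2.26. The second probes of S100a8 and Tnc had log2 ratios of 1.60, above background on neither array, and 1.43. The matrix genes Fn1 (3.40-fold) and Tnc (2.57-fold) were also higher, and Vcan, from 8.52 on the C array, not well above background, to 73.4, was at least 8.32-fold higher. Sftpa1 had the largest decrease, a log2 difference of -0.11. Most of these genes were dim on the C array, and normexp gave smaller log2 differences: 1.98 for S100a8, 2.44 for S100a9, and 3.34 for Hspa1a. With it, 4 of 13 ligands were past 2-fold, without Vcan (0.98) and Tnc (0.61). S100a8 and S100a9 are also known from neutrophils, of whose 11 listed markers 7 were well above background and 0 reached 2-fold. Of these 7, 3 were above 0 (Cxcr2 at 0.73, Lcn2 at 0.31, and Csf3r at 0.11) and 4 below, down to -0.97 for Ltf. The spot errors of these 3 were 0.43, 0.32, and 0.29, and Cxcr2 was not well above background on the C array. The study assigned the cells stained for CXCR2 in these nodes to macrophages. The summed signal of the 7 markers, in units of the 75th percentile of the array, was 1.23 (C) and 0.966 (RS). The brightest, Fcgr3a, went from 81.2 to 42.6, and the others were dim, at 45.0 or less on both arrays. Mpo, Elane, Ngp, and Cxcr1 were above background on neither array. The part of neutrophils in the values of S100a8 and S100a9 was not tested.

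Of the transcription factors downstream, 3 of 9 were past 2-fold, all higher, compared with 3.46% of all genes. Cebpb went from 438 to 1849, Jun from 243 to 478, and Fos from 11.4, not well above background, to 84.3, a 7.89-fold ratio. The second probes of Cebpb and Jun had log2 differences of 2.08 and 1.41. With normexp, 2 of 9 were past 2-fold, without Jun (0.90). Rela and Nfkb1, subunits of NF-kB, had log2 differences of 0.26 and 0.47, and Irf3, Irf5, and Irf7 lay between -0.06 and 0.08. Irf8 had the largest decrease of this list at -0.32.

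Of the inhibitors of the pathway, 3 of 18 were higher by 2-fold or more and 1 was lower, compared with 3.46% and 4.28% of all genes. Atf3, a repressor of inflammatory genes, went from 59.5 to 584, Dusp1, a phosphatase of MAP kinases, from 17.4 to 76.4, and Socs1, an inhibitor of cytokine receptors, from 20.4 to 54.98. With normexp, Atf3 was the 1 inhibitor higher by 2-fold (log2 difference 2.47), and those of Dusp1 (0.87) and Socs1 (0.51) were under it. Irak3, a brake on the Myd88 complex, went from 1659 to 2912, a log2 difference of 0.91, under 2-fold. The lower gene was Cyld, an enzyme that removes ubiquitin chains, whose brightest probe went from 8111 to 2173, a log2 difference of -1.80. Its other 3 probes had log2 differences of -0.31, -0.08, and 0.06. The brightest probe holds 9 strictly alternating A and G bases and the others at most 4. Over all probes above background on both arrays, 34 had a longest stretch of 9, that of Cyld among them. Of these 34, 91.2% were lower by 2-fold or more. The share was 15.5% of 639 probes for a stretch of 6 and 1.36% of 22733 for shorter ones. The decrease of Cyld therefore rests on 1 of 4 probes, and the part of the repeat in it was not tested.

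Of the genes that Toll-like receptors are known to induce, 10 of 23 were 2-fold or more higher, compared with 3.46% of all genes. The median log2 difference was 0.72, and 0 were lower by 2-fold. The chemokines Cxcl1 (5.03), Cxcl2 (3.76), and Ccl2 (3.73) and the prostaglandin enzyme Ptgs2 (3.67) had the largest log2 differences, an order that depends on the background correction. With normexp, the largest were those of Ccl2 (3.64), Cxcl1 (3.12), and Socs3 (2.73), and those of Cxcl2 and Ptgs2 were 2.33 and 1.72. The cytokines Il6 and Il10 went from 9.99 to 98.6 and from 25.3 to 109. Socs3 (6.99-fold), Il1rn (2.61-fold), Bcl3 (2.47-fold), and Nfkbiz (2.13-fold), regulators of cytokine and NF-kB signaling, completed the group. Il6 and Il10 had log2 differences of 1.34 and 1.05 with normexp, and Nfkbiz fell under 2-fold (0.56), leaving 9 of 23. The second probes of Ptgs2 (3.27, not well above background on C), Socs3 (2.36), Bcl3 (0.93), and Il10 (2.01) gave the same direction. The last probe of Il10 was above background on neither array. Tnf, a classical target of these receptors, went from 1121 to 1100, a log2 difference of 0.07 (spot error 0.20.) Il1b went from 851 to 1586, just under 2-fold, Cxcl10 had a log2 difference of 0.62, and Ccl5 (-0.94) had the largest decrease measured on both arrays. Ifnb1, an interferon induced through Ticam1, went from 12.8 to 2.47, which is not well above background. The lower bound of its decrease was 1.41-fold, a log2 difference of -0.49, and this bound does not allow for the spot error. The log2 ratio of the signals themselves was -2.28 (spot error 1.09). Many of these genes are also induced by other signals.

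**Figure D4:**
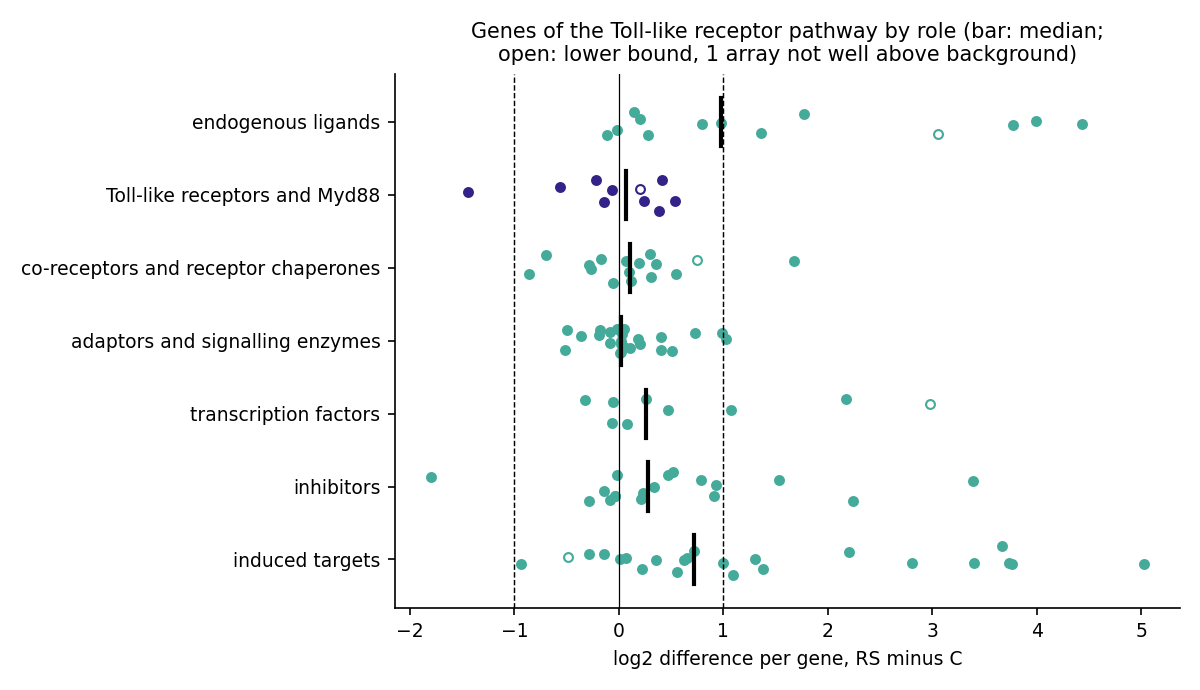
Log2 difference per gene (RS minus C) for the pathway lists by role, from ligands to induced targets, with the members in violet, black bars at the medians, open symbols for lower bounds, and dashed lines at 2-fold. The receptors, co-receptors, and adaptors center near 0 (medians 0.07, 0.10, and 0.02), and the ligand and target lists extend to 4.43 and 5.03.

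Together, 24 of 104 pathway genes above background (23.1%) were higher by 2-fold or more, compared with 3.46% of all genes, and 1 was lower. The lists were chosen with earlier results of these data known, so this contrast is partly set by that choice, and with 1 array per group it says nothing of the spread between rats. Macrophage genes, which mark the main cells known to carry these receptors, had a median log2 difference of 0.02 over 13 genes, with a range from -0.34 to 0.47. Their summed signal, in units of the 75th percentile of the array, was 355 (C) and 352 (RS). Such sums follow the brightest probes. Of the unscaled macrophage sum of 67070 on the C array, Lyz2 gave 38650.5 and C1qb 14243. Dendritic cell and B cell genes had medians of -0.09 and -0.05. Fat cell genes moved more, with a summed signal of 52.6 (C) and 130.2 (RS) over 9 genes, and so did erythrocyte genes, with 52.9 and 317 over 6 genes. Their part in the values of the members and of the pathway genes was not tested.

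**Figure D5:**
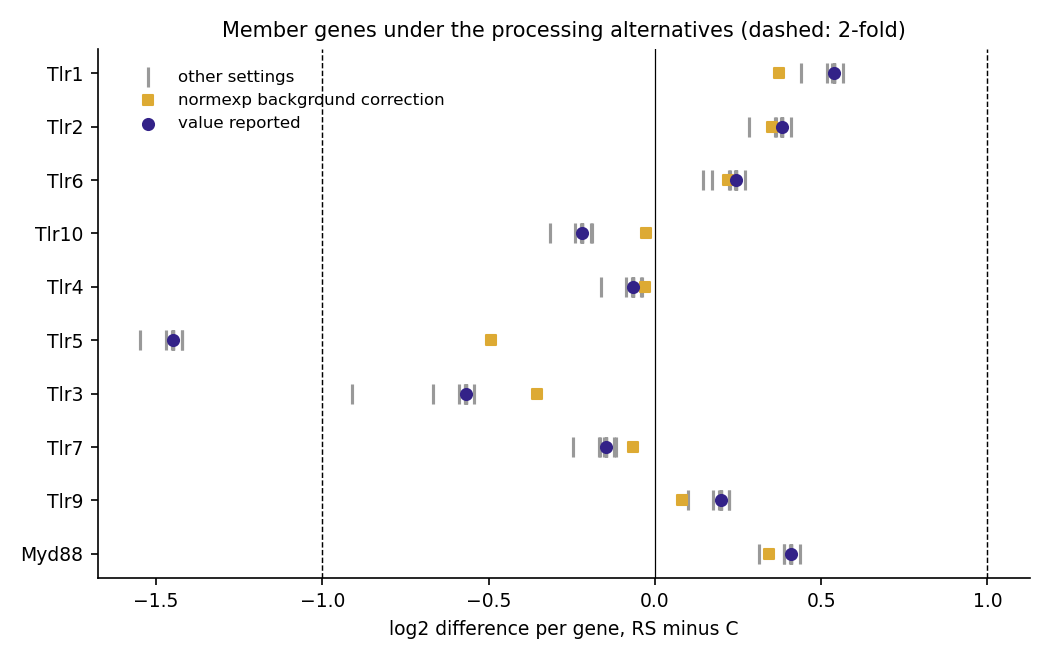
Log2 difference (RS minus C) of each member gene as reported (violet), with the normexp background correction (yellow), and under the other processing alternatives (gray ticks), with dashed lines at 2-fold. Each gene stays on its side of 0, and the value of Tlr5 moves from -1.45 to -0.49 with normexp.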

How the data were processed

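Total RNA of cervical lymph nodes was labeled with Cy3 and hybridized by the authors to SurePrint G3 Rat GE arrays, and the spots were read with Agilent Feature Extraction 11.5.1.1, per the labels and the study's methods. The deposited intensity of a spot has the local background removed, and arrays were not scaled to each other. The authors also deposited a table of log2 values of unstated scale. All of its values (100% over 45598 probes) lay within 0.1 of the scaled scanner values computed here (column medians -3.52 and -3.55), and it served as an alternative.

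Control spots and spots flagged as outliers (489 and 660) were left out, log2 intensities were averaged per probe, and each array was shifted by its 75th percentile. A probe was well above background when over 50% of its spots were marked so. A gene above background on 1 array only is compared with the higher of 2 values on the other array. These are its own dim signal and the lowest signal above background there (9.45 on C, 8.52 on RS). The difference is a lower bound where the latter is the higher, and otherwise it is the plain ratio. The threshold was 2-fold, as in the paper. Every member is named, with the genes past 2-fold and the extremes of each pathway list. The members and gene lists were chosen with earlier results of these data known. RefSeq accessions of 12 of 14 member probes matched the GRCr8 gene table, all with the same symbol. No p-value was computed. The steps were tested on simulated data. R 4.3.3, limma 3.58.1, Python 3.11.15, numpy 2.4.6, pandas 2.3.3, and matplotlib 3.10.9 were used.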

Additional observations from a re-analysis of the deposited data

How the results depend on the processing

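No paired analysis was possible because C and RS have 1 array each, and no replicate could be left out. Over 118 values of member genes under up to 12 alternatives, 0 changed sign and 115 moved by less than the spot error of the gene. The others were Tlr3 (-0.36 with normexp, -0.91 with the mean over probes) and Tlr5 (-0.49 with normexp). Most alternatives shift all genes by the same small amount or leave the value of a member as it was. The counts of sign changes and of small moves were therefore largely set in advance. The count of member genes past 2-fold was 1 in every setting except normexp and the omission of probes with 15 or more A or G bases in a row, where it was 0. The latter was chosen after seeing the data and removes the only probe of Tlr5. The count of lower pathway genes, 1, was 2 without normalization, without a background filter, and with the ratio in place of the lower bound, and 0 with the mean over probes. Of the 24 higher pathway genes, 17 remained past 2-fold with normexp. Over all genes, 730 higher and 903 lower became 234 and 378 with normexp and 2031 and 2148 without a background filter. With genes above background on both arrays only, they became 493 and 601. The number of arrays and, for Tlr9 and Tlr10, the low signal limit the precision.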
